A study of Mus musculus with 33 samples.

Results

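The genes described here are 6 checkpoint receptors (Pdcd1, Ctla4, Lag3, Havcr2, Tigit and Btla) and 4 ligands of such receptors (Cd274, Pdcd1lg2, Cd80 and Cd86). They were chosen by name among the endogenous probes of a NanoString panel, and make up 10 of its 750 probes. The assay counts colour-coded barcodes hybridised to RNA, without amplification, in 1 lane per mouse. Total bone marrow RNA came from 33 female wild-type C57BL/6 mice of 6 to 8 weeks. Mice were given venetoclax, an inhibitor of the survival protein BCL2, once a day by gavage, or ruxolitinib, an inhibitor of JAK1 and JAK2, 2 times a day by gavage, each for 2 days. Venetoclax was dosed at 100 mg/kg and ruxolitinib at 180 mg/kg, figures that appear with the unit mg/ml in the deposited design text. Each drug had its own solvent vehicle: a lipid carrier with polyethylene glycol and ethanol for venetoclax, and DMSO with polyethylene glycol in water for ruxolitinib. Marrow was taken on days 1, 3 and 7 post-treatment, with 3 mice per drug and 2 per vehicle at each time, and 3 untreated mice, which makes 13 groups. No genetic change was made in any group, and the RNA was of whole marrow, with no cell type sorted.

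Immune checkpoint receptors are brakes on lymphocytes. A receptor on a T, NK or B cell binds a ligand on a neighbouring cell, and its signal dampens activation by the antigen receptor. The ligands sit mainly on antigen-presenting cells, and several are induced by interferon, whose receptors signal through the JAK kinases. The family is known for its part in T cell tolerance and in the response to transplants.

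The endogenous counts of a lane summed to 18056 to 466096, and 2 lanes, 1 venetoclax mouse of day 1 and 1 ruxolitinib mouse of day 3, had fewer than 30000. The instrument read 11 lanes at a time, in 3 runs, and each run held the mice of a single day and 1 untreated mouse. A drug and its vehicle were therefore compared within a run, while the day and the run cannot be told apart. The day 3 mice sit in a run whose header says Day 2, and the sample labels were followed. Each lane was scaled by 11 housekeeping probes, and the values below are normalised counts on that scale unless raw counts are named. Probes differ in efficiency, so levels were compared between groups and not between genes. A mouse is the replicate, and the p-values measure the spread between mice.

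Detection set what could be learned about each gene. A raw count was taken as above background when it exceeded the mean plus 2 SD of the 8 negative control probes of its lane, a threshold of 1.83 to 7.85 counts. Of the 10 genes, 6 were above background in 17 or more of the 33 lanes, and the median lane had 6 of the 10 above background. Btla was above background in 30 lanes, with 2 to 215 raw counts. Cd274 was above background in 30 lanes, Cd80 in 29, Cd86 in 26, Lag3 in 24 and Pdcd1lg2 in 23. The other 4, Pdcd1, Ctla4, Havcr2 and Tigit, never exceeded 14 raw counts in any lane.

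Detection followed depth. In the 17 deeper lanes Btla, Cd274, Cd80, Cd86 and Lag3 were above background every time. In the 16 shallower lanes Btla and Cd274 were above background in 13, Cd80 in 12, Cd86 in 9 and Lag3 in 7. The number of these genes above background in a lane ran from 0 to 10. It was 1 in the shallowest lane and 1 to 6 in the untreated mice. After scaling, the background threshold stood at 1.57 to 39.68 normalised counts with a median of 4.04, so a value of a shallow lane can lie above most others and still be within background.

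**Figure D1:**
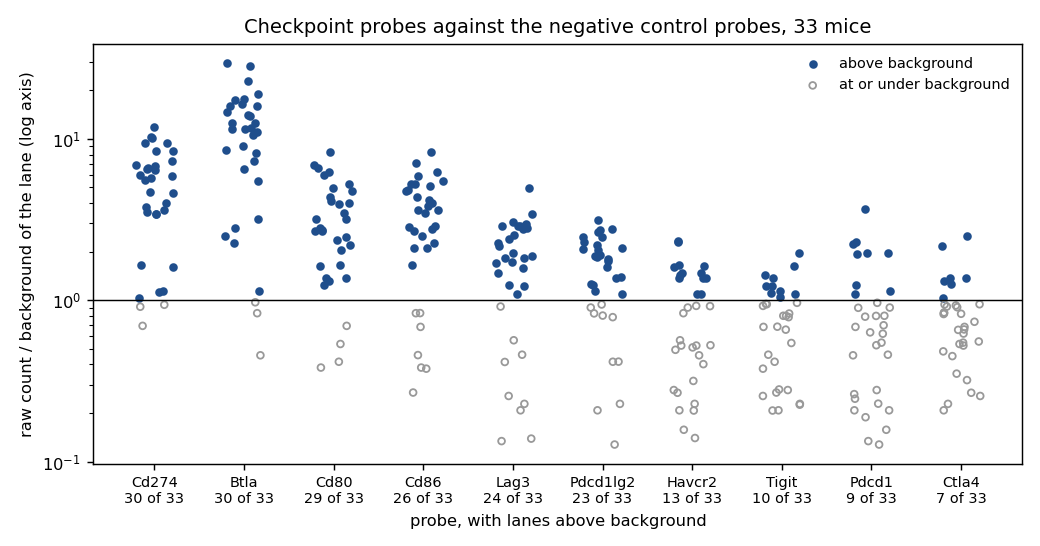
Raw count of each checkpoint probe divided by the background threshold of its lane (log axis), 1 point per mouse, with the number of lanes above background under each name. Btla and Cd274 lie above the line in 30 of 33 lanes, and Ctla4 in 7.

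Among the receptors, Btla was the only one called, meaning that its adjusted p-value over the 655 genes tested was under 0.05. Btla encodes the B and T lymphocyte attenuator, which is carried by B and T cells and binds the TNF receptor family member encoded by Tnfrsf14. It was lower after venetoclax than after vehicle, by 0.80 on the log2 scale as a mean of the 3 days, and no such change was called after ruxolitinib. Because the RNA was of whole marrow, fewer cells of a type and less RNA per cell cannot be told apart.

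On day 1 Btla stood at 11.1, 23.7 and 44.5 normalised counts in the 3 venetoclax mice and at 50.7 and 43.02 in the 2 vehicle mice. The lowest of these, 11.1, was the shallowest lane of the series, with 2 raw counts, which is within background, and the highest lay between the 2 vehicle mice. On day 3 the venetoclax mice had 32.2, 36.0 and 25.2, and the vehicle mice 74.9 and 52.5. On day 7 the venetoclax mice had 24.3, 21.3 and 15.6, and the vehicle mice 27.7 and 33.7. All 3 treated mice lay below both vehicle mice on days 3 and 7, as they did for 13.1% and 10.7% of all genes tested on those days, and the groups overlapped on day 1. Such a separation on at least 2 of the 3 days occurred for 7.02% of genes.

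Averaged over the 3 days, the log2 fold change of Btla after venetoclax was -0.80 (SE 0.17), a fold of 0.575, with an adjusted p of 0.0060 by edgeR's quasi-likelihood test. In this comparison 2.9% of the genes tested were called, 19 in all, every one of them lower, and Btla ranked sixth by p-value. The single days gave -0.73 on day 1 (SE 0.31, adjusted p = 0.353) and -1.02 on day 3 (SE 0.26, adjusted p = 0.0871). Day 7 gave -0.65 (SE 0.32, unadjusted p = 0.0543, adjusted p = 0.999). Against the venetoclax vehicle no single day passed the threshold for Btla, and with 1 mouse left out the day 1 value ran from -1.12 to -0.48. With the ruxolitinib vehicle mice of day 1, at 57.7 and 73.6, pooled into the vehicle, day 1 was called (-1.03, adjusted p = 0.0233). Without the 2 shallow lanes the mean of the 3 days was -0.75 (adjusted p = 0.0103). After subtraction of the background from each lane and a fit with limma it was -1.32 and was no longer called (adjusted p = 0.265).

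After ruxolitinib, Btla on day 1 was 81.6, 82.0 and 79.9 in the treated mice and 57.7 and 73.6 in the vehicle mice. All 3 treated mice were above both vehicle mice, an arrangement shown by 27.6% of the genes on that day, and Btla was not called. On day 3 the treated mice had 38.5, 30.9 and 44.6 and the vehicle mice 42.9 and 52.7. On day 7 the treated mice had 25.01, 19.4 and 12.4 and the vehicle mice 28.7 and 24.6. The groups overlapped on both of these days, and the values of 38.5 and 12.4 came from lanes in which Btla was within background. The log2 fold changes of the single days ran from -0.40 to 0.29, and their mean was -0.17 (SE 0.16, adjusted p = 0.719).

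The change of Btla against vehicle was set between the drugs directly. The venetoclax change minus the ruxolitinib change was -1.02 on day 1 (SE 0.39, adjusted p = 0.186) and -0.63 as a mean of the 3 days (SE 0.24, unadjusted p = 0.0112, adjusted p = 0.263). Neither passed the threshold with each drug set against its own vehicle. With both vehicle groups of a day pooled, venetoclax mice are set directly against ruxolitinib mice. Both values were then called, at -1.53 on day 1 (SE 0.28, adjusted p = 2.362e-04) and -0.64 over the 3 days (SE 0.16, adjusted p = 0.0106). Any difference between the solvents of the drugs stays in these pooled values. The ruxolitinib vehicle mice of day 1 had 57.7 and 73.6, both above the venetoclax vehicle mice of that day at 50.7 and 43.02.

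Across the 13 groups the mean of Btla was highest in ruxolitinib mice of day 1, at 81.2 ± 1.14 (SD, n = 3), followed by the ruxolitinib vehicle of day 1 at 65.6 ± 11.3 (n = 2) and the venetoclax vehicle of day 3 at 63.7 ± 15.8 (n = 2). It was lowest in ruxolitinib mice of day 7, at 18.9 ± 6.31 (n = 3, including 12.4 from a lane within background). The next lowest mean was that of venetoclax mice of day 7, at 20.4 ± 4.43 (n = 3). Neighbours in this order lay within the larger of their SDs except at 3 steps: below ruxolitinib day 1, below the untreated mice and below the venetoclax vehicle of day 1. The 4 vehicle mice of day 7 had 24.6 to 33.7, and the 4 of day 1 had 43.02 to 73.6, without overlap. The log2 fold change of the vehicle groups from day 1 to day 7 was -0.97 (SE 0.22, adjusted p = 0.0014). This comparison was added after the values were seen, 30.1% of all genes were called in it, and the median gene was at 0.19, or at -0.01 to 0.44 under other scalings. Of the 10 checkpoint genes 1 was called in it and 2 had an unadjusted p under 0.05, against 39.1% of all genes. By limma after background subtraction Btla was at -1.02 in this comparison and was not called (adjusted p = 0.345). The 3 untreated mice, 1 from each run, had 54.4, 61.3 and 50.6, all of them above the 4 vehicle mice of day 7.

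**Figure D2:**
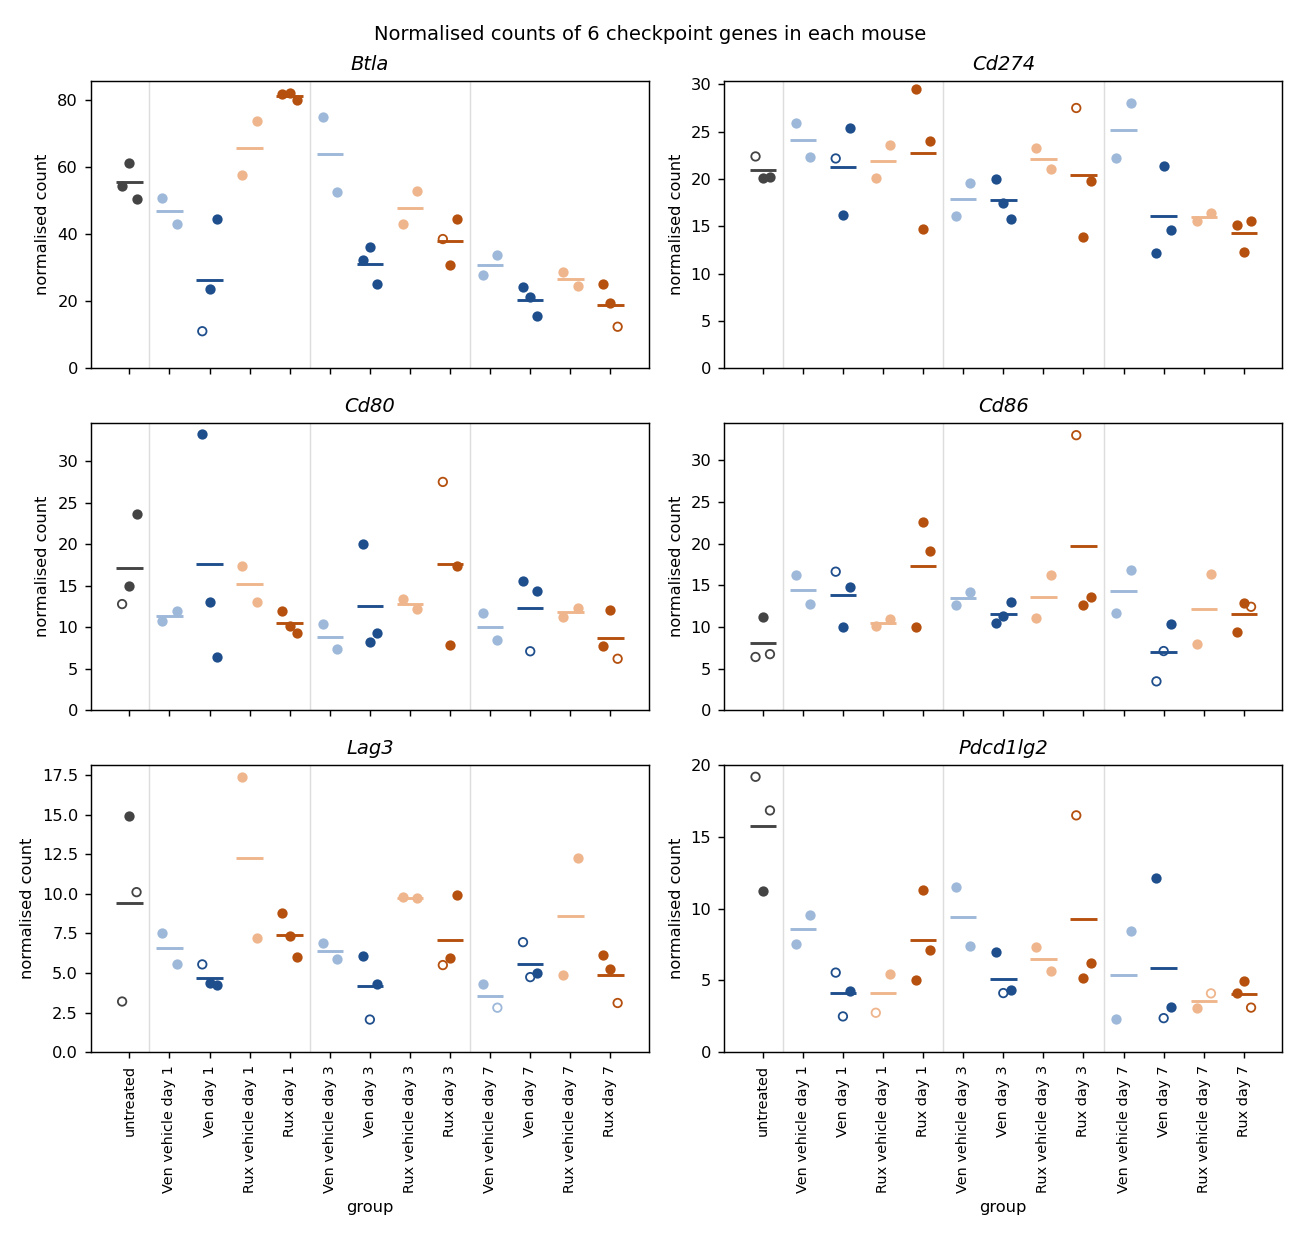
Normalised counts of 6 checkpoint genes (linear axis from 0) in each of the 33 mice by group, with the group mean as a line and open points for lanes within background. All 3 venetoclax mice lie below both vehicle mice for Btla on days 3 and 7, and the open points of Pdcd1lg2, Cd86 and Cd80 include some of the highest values of those genes.

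Markers of the cells that carry Btla were set beside it. Summed over the 10 B cell markers on the panel, the venetoclax mice of day 1 had 604.5 to 700.1 normalised counts and their vehicle mice 940.9 to 1123.2. On day 3 the sums were 773.4 to 1094.7 and 1042.6 to 1299.5, and on day 7 962.7 to 1433.4 and 1334.6 to 1575.7. Only on day 1 did the B cell sums of treated and vehicle mice not overlap. Such a sum weighs abundant markers most, and the 10 include Cd74, which the paper counts among the MHC class II genes. It is therefore not a measure of B cell number alone. Taken singly on that day, 7 of the 10 markers had negative log2 fold changes and 3 positive ones, with a median of -0.30, and 0 were called. Of all genes 51.8% were negative on that day and 0.153% were called, with a median of -0.02. Summed over 12 T cell markers, the venetoclax mice had 72.1 to 155.3, 82.1 to 100.9 and 84.3 to 116.4 on days 1, 3 and 7, and their vehicle mice 125.1 to 134.9, 156.2 to 170.7 and 139.5 to 219.1. The T cell sums did not overlap on days 3 and 7. The overlap on day 1 rests on the sum of 155.3, which came from the shallowest lane. The other venetoclax mice of day 1 had 72.1 and 74.1, below both vehicle mice.

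Gene by gene over the 3 days of venetoclax, 1 of 10 B cell markers was called lower. This was Cd22, which encodes an inhibitory lectin of B cells, at -0.80 (SE 0.23, adjusted p = 0.0476). The median of the 10 was -0.28. Of the 12 T cell markers 3 were called lower and all 12 had negative log2 fold changes, with a median of -0.63. The 3 were Cd3d, a chain of the T cell receptor complex, at -0.94 (SE 0.23, adjusted p = 0.0153), Cd8a, the CD8 co-receptor, at -1.90 (SE 0.46, adjusted p = 0.0139), and Zap70, a kinase downstream of that receptor, at -0.97 (SE 0.24, adjusted p = 0.0162). Of all genes tested 2.9% were called and 43.7% had negative values, with a median of 0.04. The lowest raw count of any probe in any lane was 1, so a count by itself does not show detection. Of each list 9 markers were above background in 17 or more lanes. Cd8a, above background in 16 lanes, was not among these. After ruxolitinib 7 of the 10 B cell markers had negative log2 fold changes, with a median of -0.32, and 1 was called lower, the transcription factor Pax5 at -0.83. Of the T cell markers 10 of 12 were negative, with a median of -0.20, and none was called. Of all genes 1.22% were called after ruxolitinib and 43.8% were negative. The B cell sums of the ruxolitinib mice were 1559.6 to 1842.2 on day 1 and 791.0 to 1083.7 on day 7, against 1128.2 to 1179.7 and 1129.1 to 1520.1 in their vehicle mice. They lay above the vehicle on day 1 and below it on day 7, and overlapped it on day 3. The part of B and T cell markers in the Btla result was not tested.

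**Figure D3:**
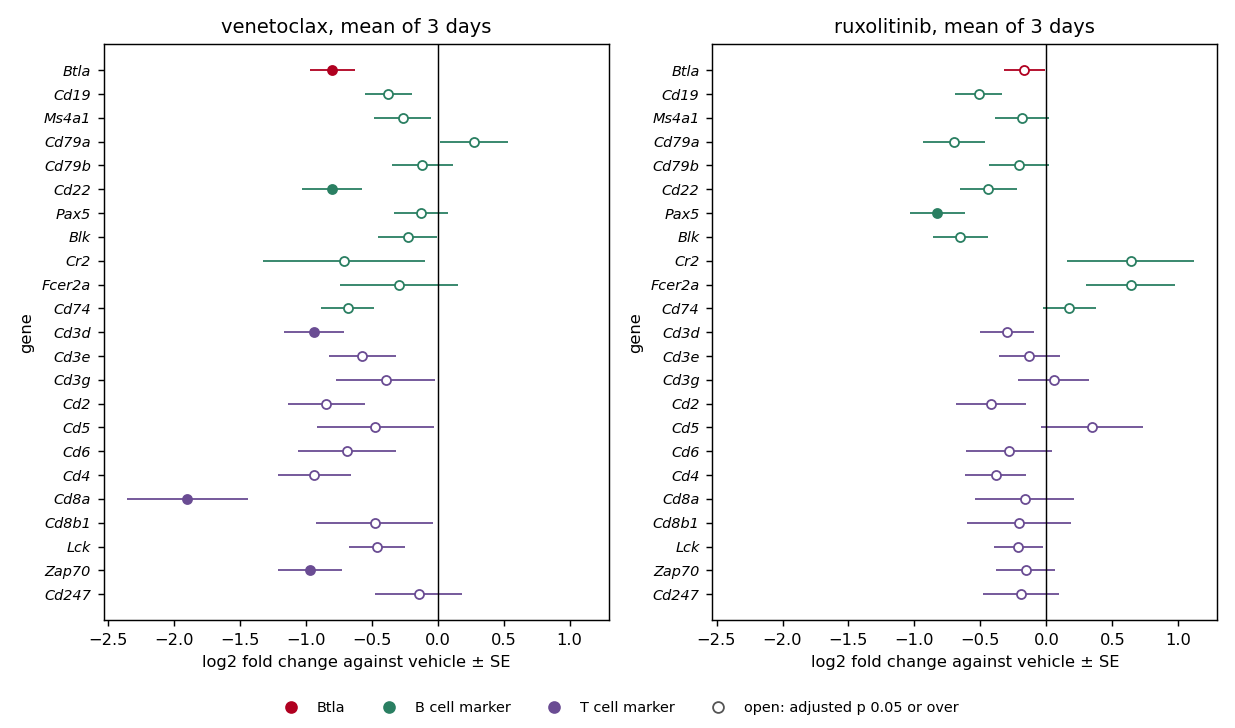
Log2 fold change against vehicle, mean of 3 days, with SE, for Btla, 10 B cell markers and 12 T cell markers after venetoclax (left) and ruxolitinib (right), where filled points have an adjusted p under 0.05. After venetoclax Btla (-0.80), Cd22, Cd3d, Cd8a and Zap70 are filled, and after ruxolitinib Pax5.

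Over the 33 lanes the genes whose pattern was most like that of Btla, among 515 genes detected in 17 or more lanes, were H2-Ob (Pearson r = 0.91), Cd22 (r = 0.82) and Cd180 (r = 0.75), computed on log2(normalised count + 1). H2-Ob encodes a chain of an MHC class II chaperone found in B cells, and Cd180 a Toll-like receptor relative of B cells. These correlations describe lanes that share their depth and scaling factor. For the other 5 well detected genes the highest r was 0.457 for Lag3 to 0.645 for Cd80.

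Tnfrsf14, which encodes the partner of Btla, was above background in all 33 lanes. Its log2 fold change over the 3 days was -0.01 after venetoclax (SE 0.17, adjusted p = 0.995) and -0.16 after ruxolitinib (SE 0.17, adjusted p = 0.767), and neither was called. By edgeR the ruxolitinib value was -0.61 on day 1 (SE 0.28, unadjusted p = 0.0333, adjusted p = 0.325), -0.08 on day 3 and 0.22 on day 7. The venetoclax values of these days were 0.21, -0.30 and 0.06. Tnfrsf14 was called in vehicle mice of day 7 against day 1, where 30.1% of all genes were called.

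RefSeq promoter windows on mouse build GRCm38.p6 were at hand for 8 of the 10 genes, all but Lag3 and Cd86, and the stretch next to the start site of Btla is shown because Btla is the gene called. Its chromosome position is chr16:45224306-45224335 on the forward strand, from 31 to 2 bases before the start site used by the table. The RefSeq gene model also reaches further upstream, so this is one of its annotated starts. The capitals mark 2 adjoining copies of GAGGAA, the core of the sequence bound by the haematopoietic factor PU.1.
Btla: ctctaggGAGGAAGAGGAAgtttgccctta
On either strand of the 250 bases before the start, GAGGAA occurred in 4 of the 8 windows (Pdcd1, Havcr2, Btla and Pdcd1lg2) and in 23.3% of 32851 promoters. The tandem form, searched for after it had been seen, was in 0.1% of promoters. These matches describe the letters of the windows and do not show that a factor was bound.

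Lag3 encodes a receptor of activated T and NK cells that binds MHC class II, and was above background in 24 lanes. In the venetoclax groups it had 5.5, 4.4 and 4.2 on day 1 against 7.6 and 5.6 in vehicle mice. On day 3 it had 6.1, 2.1 and 4.3 against 6.9 and 5.9, and on day 7 7.0, 4.7 and 5.0 against 4.3 and 2.8. The treated mice lay below their vehicle on day 1, as for 15.7% of genes, but the nearest pair was 5.546 against 5.577, and the 5.546 came from the shallowest lane with 1 raw count, within background. On day 7 they lay above it, as for 6.56% of genes, and only 2 of the 5 lanes of that day were above background. In the ruxolitinib groups it had 8.8, 7.4 and 6.0 against 17.4 and 7.2 on day 1, and the groups overlapped on every day. The mean of the 3 days was -0.23 after venetoclax (SE 0.32, adjusted p = 0.919) and -0.42 after ruxolitinib (SE 0.26, adjusted p = 0.551).

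Of the ligands of Lag3 on the panel, the MHC class II chains fell after venetoclax. H2-Aa, H2-Ab1 and H2-Eb1, which encode chains of MHC class II, were called lower over the 3 days, at -0.94 (SE 0.22, adjusted p = 0.0122), -0.78 (SE 0.15, adjusted p = 0.0016) and -0.90 (SE 0.17, adjusted p = 0.0016). They were the only 3 called of 11 binding partners of the checkpoint genes tested, whose median was -0.01, beside 2.9% of all genes called and a median of 0.04. Lgals3, which encodes galectin-3, another ligand of Lag3, had 0.12 (SE 0.18, adjusted p = 0.919). After ruxolitinib none of the 11 was called. The 3 chains had 0.37 to 0.91 on day 1, -0.10 to 0.17 on day 3 and -0.40 to -0.29 on day 7, and -0.01 to 0.23 as means of the 3 days. The drug difference was called on day 1 for H2-Aa and H2-Ab1, beside 1.68% of all genes. Over the 3 days it was called for H2-Ab1 at -0.83 (SE 0.21, adjusted p = 0.0471), beside 0.611% of all genes, and was -1.17 for H2-Aa (adjusted p = 0.0692) and -0.90 for H2-Eb1 (adjusted p = 0.0672).

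The other 4 receptors were at the limit of the assay. Pdcd1, which encodes PD-1, was above background in 9 lanes with 1 to 14 raw counts, and both mice of the ruxolitinib vehicle of day 1 had 14. The 3 ruxolitinib mice of that day were lower on average, with a log2 fold change of -1.33 (SE 0.63, adjusted p = 0.352), but the groups overlapped and 3 of the 5 lanes were above background. Havcr2, which encodes the receptor TIM-3 of T and myeloid cells, was above background in 13 lanes with at most 13 raw counts. Tigit, a receptor of T and NK cells, was above background in 10 lanes with at most 9 raw counts, and Ctla4, which competes for the ligands encoded by Cd80 and Cd86, in 7 lanes with at most 12. None of the untreated mice had any of these 4 above background. For these genes a change against vehicle was not detectable at this depth, and their absence from marrow cannot be read from these counts.

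Of the ligands, none was called by edgeR in any of the 16 comparisons with housekeeping scaling, whereas TMM scaling called Pdcd1lg2 in vehicle mice of day 7 against day 1, and 8 of the 64 pairs of ligand and comparison had an unadjusted p under 0.05, as had 10.0% of the pairs of all genes. Cd274 encodes PD-L1, the main ligand of PD-1, and is known to be induced by interferon gamma. It was the steadiest of the well detected genes, with all 33 mice between 12.2 and 29.5 normalised counts and group means from 14.3 to 25.2. On day 7 it had 12.2, 21.3 and 14.7 in venetoclax mice and 22.3 and 28.1 in vehicle mice. All treated mice lay below both vehicle mice, as for 10.7% of genes on that day, with a log2 fold change of -0.63 (SE 0.31, unadjusted p = 0.0478, adjusted p = 0.999). In the earlier days the groups overlapped, at 16.2 to 25.5 against 22.3 to 25.9 on day 1 and 15.8 to 20.0 against 16.1 to 19.6 on day 3. The mean of the 3 days was -0.33 (SE 0.18, adjusted p = 0.589).

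After ruxolitinib Cd274 stood at 14.7 to 29.5 against 20.1 and 23.6 in vehicle mice on day 1, at 13.8 to 27.5 against 21.1 and 23.3 on day 3, and at 12.3 to 15.5 against 15.6 and 16.4 on day 7. The 27.5 of day 3 came from a lane within background, with 5 raw counts. The other treated mice of day 3 had 13.8 and 19.8, below both vehicle mice. The treated mice were below both vehicle mice on day 7, as for 9.62% of genes, by a margin smaller than the spread between them, and the mean of the 3 days was -0.18 (SE 0.17, adjusted p = 0.715). Genes of the interferon gamma route were read beside it. On day 1 after ruxolitinib 1 of 10 such genes tested was called, in a comparison in which 2.75% of genes were called, and the median of the 10 was -0.22 against 0.13 for all genes. The gene was Cxcl10, a chemokine induced by interferon, at -1.83 (SE 0.51, adjusted p = 0.0426). Its value was 1.23 on day 3 (unadjusted p = 0.0345, adjusted p = 0.905), 0.05 on day 7 and -0.18 as the mean of the 3 days (adjusted p = 0.876). Irf1, a transcription factor induced by interferon, had -0.34 (SE 0.21, adjusted p = 0.529), and Cd274 overlapped between the groups.

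Pdcd1lg2 encodes PD-L2, the second ligand of PD-1, carried by dendritic cells and macrophages. On day 1 it had 5.5, 2.5 and 4.2 in venetoclax mice and 7.6 and 9.6 in vehicle mice, all treated mice below, as for 15.7% of genes on that day. The raw counts behind the treated mice were 1, 4 and 2, and 1 of these 3 lanes was above background. The log2 fold change was -1.42 (SE 0.66, unadjusted p = 0.0382, adjusted p = 0.417). On day 3 the venetoclax mice had 7.0, 4.1 and 4.3 against 11.5 and 7.4, all treated mice below, as for 13.1% of genes. The 4.1 came from a lane within background. On day 7 the groups overlapped, at 2.4 to 12.2 against 2.3 and 8.4. The ruxolitinib mice of day 1 had 5.0, 11.3 and 7.1 against 2.7 and 5.5 in their vehicle. The drugs differed on that day by -2.19 (SE 0.81, adjusted p = 0.171). The venetoclax change on day 1 minus that on day 7 was -1.92 (SE 0.93, adjusted p = 0.826). None of these passed the threshold. The mean of the 3 days was -0.57 after venetoclax (SE 0.36, adjusted p = 0.697) and 0.41 after ruxolitinib (SE 0.31, adjusted p = 0.634).

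Cd80 and Cd86 encode the B7 molecules of antigen-presenting cells, which stimulate T cells through the receptor encoded by Cd28 and are bound by that of Ctla4. After venetoclax Cd80 had 33.3, 13.1 and 6.4 on day 1 against 10.8 and 11.9 in vehicle mice, and the groups overlapped on every day. The 33.3 came from the shallowest lane, with 6 raw counts. The mean of the 3 days was 0.36 (SE 0.26, adjusted p = 0.762). After ruxolitinib Cd80 had 11.9, 10.2 and 9.3 on day 1 against 17.4 and 13.01, all treated mice below, as for 16.3% of genes on that day. The mean of the 3 days was -0.25 (SE 0.24, adjusted p = 0.719).

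Cd86 had 10.0, 22.6 and 19.1 in ruxolitinib mice of day 1 and 10.1 and 10.96 in their vehicle. Of the treated mice 2 were well above the vehicle mice and 1 lay below them, with a log2 fold change of 0.70 (SE 0.34, unadjusted p = 0.0453, adjusted p = 0.352). After venetoclax on day 7 it had 3.5, 7.1 and 10.3 against 11.7 and 16.9, all treated mice below, as for 10.7% of genes on that day, with 2 of the 3 treated lanes within background. The mean of the 3 days was -0.35 after venetoclax (SE 0.24, adjusted p = 0.731) and 0.34 after ruxolitinib (SE 0.22, adjusted p = 0.557). The difference between the drugs over the 3 days was -0.69 (SE 0.32, unadjusted p = 0.0383, adjusted p = 0.512), which did not pass the threshold. Cd28, the stimulatory receptor of both ligands, was not called after either drug.

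**Figure D4:**
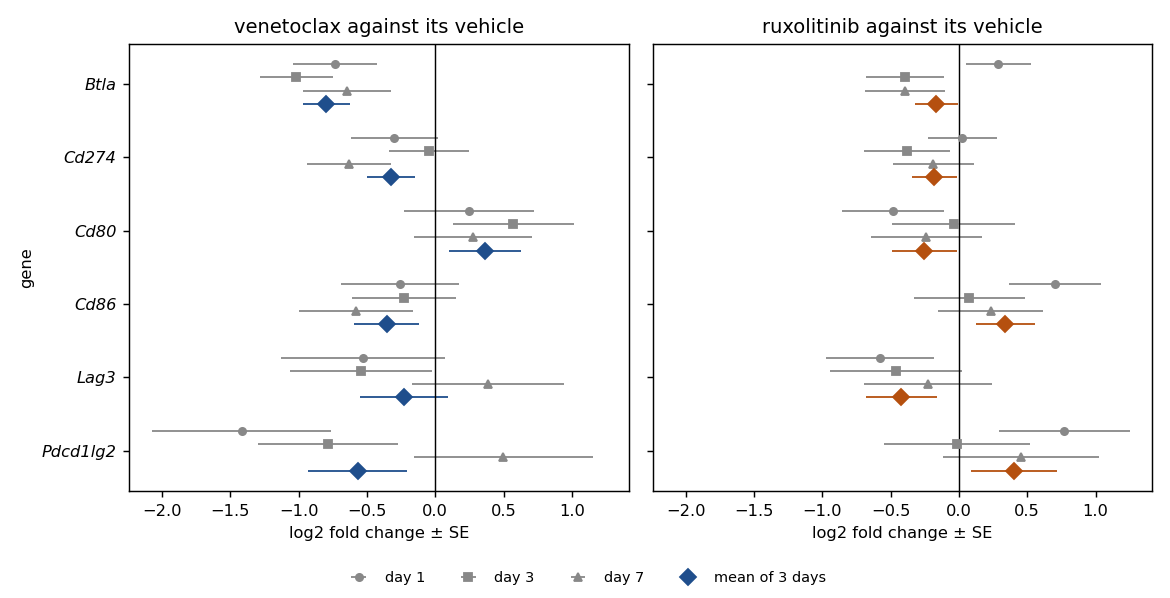
Log2 fold change against vehicle with SE for 6 checkpoint genes after venetoclax (left) and ruxolitinib (right), with days 1, 3 and 7 in grey and their mean in colour. The mean for Btla after venetoclax (-0.80) is the only one with an adjusted p under 0.05.

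Taken gene by gene over the single days, with each drug against its own vehicle, no checkpoint gene was called by edgeR in venetoclax mice on day 1, 3 or 7, where 0.153%, 0.0% and 0.153% of all genes were called. With both vehicles of a day pooled, so that mice given the ruxolitinib solvent are among them, Btla was called on day 1 (-1.03, adjusted p = 0.0233). At an unadjusted p under 0.05 there were 2, 1 and 1 of the 10, beside 10.4%, 10.7% and 4.73% of all genes. In ruxolitinib mice edgeR called none on days 1, 3 and 7 or over the 3 days, where 2.75%, 0.153%, 0.153% and 1.22% of all genes were called. At an unadjusted p under 0.05 there were 2 of the 10 on day 1, beside 13.6% of all genes, and none on days 3 and 7 or over the 3 days, beside 4.73%, 3.51% and 8.85%. DESeq2 and limma on the scaled counts called none of them in these 7 comparisons either. Over the 3 days of venetoclax Btla alone had an unadjusted p under 0.05, beside 9.16% of all genes. The median log2 fold change of the 10 genes over the 3 days was -0.16 after venetoclax and -0.10 after ruxolitinib, beside 0.04 and 0.04 for all genes. For the 6 well detected genes it was -0.34 and -0.17, beside 0.01 and 0.02 for genes detected as often.

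Between the drugs, each against its own vehicle, no checkpoint gene was called by edgeR on day 1, 3 or 7 or over the 3 days, where 1.68%, 0.153%, 0.305% and 0.611% of all genes were called, and 2, 0, 0 and 2 of the 10 had an unadjusted p under 0.05, against 13.4%, 3.05%, 3.82% and 8.7% of all genes. With the vehicles of a day pooled, Btla was called on day 1 and over the 3 days, in a contrast that keeps any difference between the solvents. No checkpoint gene was called for the change on day 1 minus that on day 7, where 0.0% of genes were called for venetoclax and 1.53% for ruxolitinib, with 1 and 0 of the 10 at an unadjusted p under 0.05, against 5.65% and 9.62% of all genes.

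Of 18 other co-stimulatory and co-inhibitory genes tested, such as Icos, Cd40 and Cd47, none was called over the 3 days of either drug, and their medians were 0.01 after venetoclax and 0.09 after ruxolitinib. Of 8 NK cell markers none was called in either. Of all genes 2.9% and 1.22% were called, so that counts of 0 in lists of this size are near the background. When the 6 vehicle groups were averaged and set against untreated mice, no checkpoint gene was called by edgeR, with 2 of the 10 at an unadjusted p under 0.05, in a comparison in which 0.0% of genes were called and 11.5% had an unadjusted p under 0.05. Pdcd1lg2 was at -1.37 (SE 0.40, adjusted p = 0.179), from 19.2, 11.2 and 16.9 in untreated mice, but only the lane with 11.2 was above background there. Its log2 fold change from day 1 to day 7 in vehicle mice was -0.92 (SE 0.44, adjusted p = 0.117), and was called with TMM scaling (adjusted p = 0.034).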

How the data were processed

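The authors deposited raw barcode counts per probe, 1 lane per mouse, exported from the nCounter without normalisation. The paper names the PanCancer Immune panel and the design text an immunology panel. Lanes were scaled to the geometric mean of 11 housekeeping probes, those of 20 that exceeded background in all lanes. Genes had to exceed background in 2 lanes, which left 655. They were fitted together as 13 group means by edgeR 4.0.16 (quasi-likelihood, R 4.3.3), with Benjamini-Hochberg adjustment over all genes and a threshold of 0.05. Fold changes of checkpoint genes were printed where the gene was above background in most of the lanes compared. The mean over days of each drug against its vehicle was then always printed. Other comparisons were printed at an unadjusted p under 0.05, except for the single days of Btla, given as values or a range. Genes on the other lists did not follow this rule. Alternatives were other scalings and filters, DESeq2 1.42.0, limma 3.58.1, background subtraction, pooled vehicles, a replicate block and each mouse left out. The test was checked on simulated counts. The genes, lists and rules were chosen with earlier results of these data known, and 2 comparisons were added after values were seen (vehicle mice of day 7 against day 1, and the drug difference over 3 days). The values of 1 gene of the interferon gamma list are not reported here.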

Additional observations from a re-analysis of the deposited data

How the results depend on the processing

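The fall of Btla over the 3 days of venetoclax was called in 11 of 12 alternatives (log2 fold change -1.32 to -0.75, adjusted p 6.092e-04 to 0.265) and in 15 of 15 fits without 1 mouse (-0.93 to -0.70, adjusted p 0.0033 to 0.0425). The exception was limma after background subtraction, in which 0 checkpoint genes were called over the 3 days and 0 for vehicle mice of day 7 against day 1, where Btla was at -1.02 (adjusted p = 0.345). That fit called 1, Cd86, for vehicle against untreated mice. With both vehicles of a day pooled, 1 checkpoint gene, Btla, was called for venetoclax on day 1 (-1.03, adjusted p = 0.0233), 1 for the drug difference on day 1 (-1.53) and 1 for that over the 3 days (-0.64). These drug differences keep any difference between the solvents. The pooled vehicle of the venetoclax value holds mice given the ruxolitinib solvent, so that value carries such a difference too. TMM scaling called 2, Btla and Pdcd1lg2, for vehicle mice of day 7 against day 1. The median gene of that comparison was at 0.19, and at -0.01 with TMM scaling, -0.0036 with all 20 housekeeping probes, 0.04 with DESeq2 and 0.44 with total count scaling. The cause of these differences was not tested. With background at the mean plus 3 SD, Tigit was above it in 4 lanes. None of the 26 checkpoint fold changes run under the alternatives reversed. Outside the means over the 3 days of each drug, they had been picked at an unadjusted p under 0.05. That choice made a reversal less likely from the start. Other values, such as those of the cell markers and MHC class II chains, were not run under them. The replicate numbers are shared between groups, but same-numbered mice are different animals and their deviations correlated at r over 0.1 in 6 of 12 pairs (r from -0.25 to 0.36). With the replicate block Btla stayed called over the 3 days (-0.78, adjusted p = 0.0194). Of 24 fold changes that were not called, 18 moved by over 1.5 times with 1 mouse left out, and none of these was called. For venetoclax on day 1 they were Pdcd1lg2 (-1.57 to -0.89) and Btla (-1.12 to -0.48), and for ruxolitinib on day 1 Pdcd1 (-2.00 to -0.60) and Cd86 (0.47 to 0.97). Over the 3 days of venetoclax they were Cd274 (-0.41 to -0.22), Pdcd1lg2 (-1.01 to -0.32), Lag3 (-0.34 to -0.06), Cd80 (0.20 to 0.50) and Cd86 (-0.60 to -0.23). Over those of ruxolitinib they were Cd274 (-0.25 to -0.06), Pdcd1lg2 (0.29 to 0.64), Lag3 (-0.73 to -0.22), Btla (-0.24 to -0.09), Cd80 (-0.37 to -0.03) and Cd86 (0.09 to 0.45). The others were the drug difference of Cd86 over the 3 days (-0.94 to -0.44), and Pdcd1lg2 for the venetoclax change of day 1 minus day 7 (-2.66 to -0.59) and for vehicle mice of day 7 against day 1 (-1.17 to -0.26). Low counts limit Pdcd1, Ctla4, Havcr2 and Tigit.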
